A study of Mus musculus with 12 samples.

Results

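Interferon-stimulated genes are the genes that cells switch on when interferons bind their receptors. The set described here holds 35 of them: 22 best known as targets of type I interferon and 13 best known as responsive to interferon gamma. Each gene was read from its probe set of highest mean over 12 Affymetrix mouse arrays of lung RNA, by the platform's annotation. A probe set of their own was found for 33 of the 35, and 32 passed the filter on low values and were tested among 11602 genes (19 type I and 13 gamma-responsive members). Isg15, a ubiquitin-like modifier, was annotated only on a probe set that also carries another gene's symbol, and Ifi44 had no probe set with its symbol in the annotation used here. Mx2, a dynamin-like antiviral GTPase, read 2.40 to 2.90 on the log2 scale on all 12 arrays, below the filter.

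The 4 labelled groups hold 3 arrays each, all from wild-type mice of unstated strain. Control animals received vehicle and were 8 to 10 weeks old by the labels. The radiation group received a single dose of 25 Gy, with lungs taken 6 weeks later; the simvastatin group received 10 mg/kg of this inhibitor of cholesterol synthesis by intraperitoneal injection 3 times weekly; the combined group received both. The labels give 8 to 12 weeks of age for these 3 groups, so the age range differs from that of the controls. They do not say whether replicates are separate animals, so a p-value here weighs a difference against the spread among these arrays, which may be technical only.

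Type I interferons are made by almost any infected or damaged cell after nucleic acids are sensed, and their receptor activates a complex of Stat proteins with Irf9 that binds the interferon-stimulated response element. Interferon gamma comes mainly from T and NK cells, and its receptor activates Stat dimers that bind the gamma-activated site. The first branch is known for antiviral effectors and RNA sensors, the second for Irf1, antigen processing, guanylate-binding proteins, immunity-related GTPases and the chemokines Cxcl9 and Cxcl10. Many of these genes answer to both, and in lung they are expressed by epithelium, endothelium and leukocytes.

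Both elements can be read in the start regions of several members. RefSeq windows (build GRCm38.p6, 250 bases before to 50 after the start) were at hand for 27 of the 35 genes. The core of the response element, GAAA and GAAA with any 2 bases between them, searched on both strands, occurred in 13 of the 27 genes (48.1%, against 3.99% of all 27025 genes with a window): 8 of 15 type I and 5 of 12 gamma-responsive members. The core of the gamma-activated site, TTC and GAA with any 3 bases between them, which is the same pattern on both strands, occurred in 7 of the 27 (25.9%, against 9.55% of all genes): 3 type I and 4 gamma-responsive members. A match describes the letters alone, and matches of the 2 kinds can overlap. The stretches of Igtp, Psmb8 and Ifit2 are shown because each was among the 4 members of lowest p in a comparison and its window holds a match; Irf1, Cxcl10 and Ifit1 were added after their values were seen, as examples of each branch. All run 5' to 3' on the gene's strand, with matched letters in capitals.
Igtp (chr11:58199486-58199555, plus strand): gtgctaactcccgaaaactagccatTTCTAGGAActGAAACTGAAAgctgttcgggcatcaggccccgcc
Psmb8 (chr17:34198073-34198131, plus strand): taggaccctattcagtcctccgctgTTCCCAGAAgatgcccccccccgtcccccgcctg
Ifit2 (chr19:34550444-34550486, plus strand): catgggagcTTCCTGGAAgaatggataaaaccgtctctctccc
Irf1 (chr11:53769899-53769957, plus strand): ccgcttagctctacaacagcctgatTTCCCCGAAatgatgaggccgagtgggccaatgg
Cxcl10 (chr5:92349068-92349127, minus strand): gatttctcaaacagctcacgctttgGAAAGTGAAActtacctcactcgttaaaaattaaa
Ifit1 (chr19:34640760-34640838, plus strand): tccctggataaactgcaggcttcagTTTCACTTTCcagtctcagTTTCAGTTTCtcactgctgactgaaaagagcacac
Igtp holds the 2 elements side by side, the gamma-activated letters at -45 and the response-element letters at -34 from the start. Irf1 and Psmb8 hold a gamma-activated match alone, and Ifit1 holds 2 response-element matches, at -104 and -85. Tap1 and Psmb9 sit head to head: their starts lie 226 bases apart on opposite strands. The stretch between them, shown because both genes recur in the comparisons below, holds neither set of letters.
Tap1 and Psmb9 (chr17:34187331-34187555, plus strand): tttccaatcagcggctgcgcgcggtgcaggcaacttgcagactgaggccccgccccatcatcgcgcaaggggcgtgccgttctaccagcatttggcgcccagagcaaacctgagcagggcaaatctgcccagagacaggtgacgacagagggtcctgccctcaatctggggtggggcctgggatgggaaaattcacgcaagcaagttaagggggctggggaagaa

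Several arrays went against their labels or stood apart, which touches every comparison below. Cdkn1a, a p53 target induced by radiation, read 13.12 to 13.42 on the 3 radiation arrays and 13.17 to 13.19 on combined 1 and 2, but 11.18 on the array labelled combined 3; it read 10.25 and 10.69 on control 1 and 2 but 13.01 on the array labelled control 3, and 11.09 and 11.11 on simvastatin 1 and 3 but 13.36 on the array labelled simvastatin 2. The arrays combined 3, simvastatin 1 and simvastatin 3 were nearly alike: over 10342 probe sets with a mean above 9, the SD of the log2 difference was 0.111 to 0.118 within these 3 pairs and at least 0.336 in every other pair. Simvastatin 1 and 3 differed by less than other replicates do and were counted as 1 sample, which leaves 11 samples. Combined 3, as close to them as they are to each other, was kept as a sample of its labelled group. The 11 samples may therefore not all be independent. Sftpc, which defines alveolar type 2 cells, read 15.57 to 15.84 on all arrays. Skeletal muscle, squamous, brown fat and thymocyte genes varied from array to array; Rag1, specific to immature lymphocytes, read 14.42 on control 1 and 11.05 on combined 1 and 2.09 to 2.33 on the other 10. In whole lung, fewer cells of a type and less RNA per cell cannot be told apart.

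**Figure D1:**
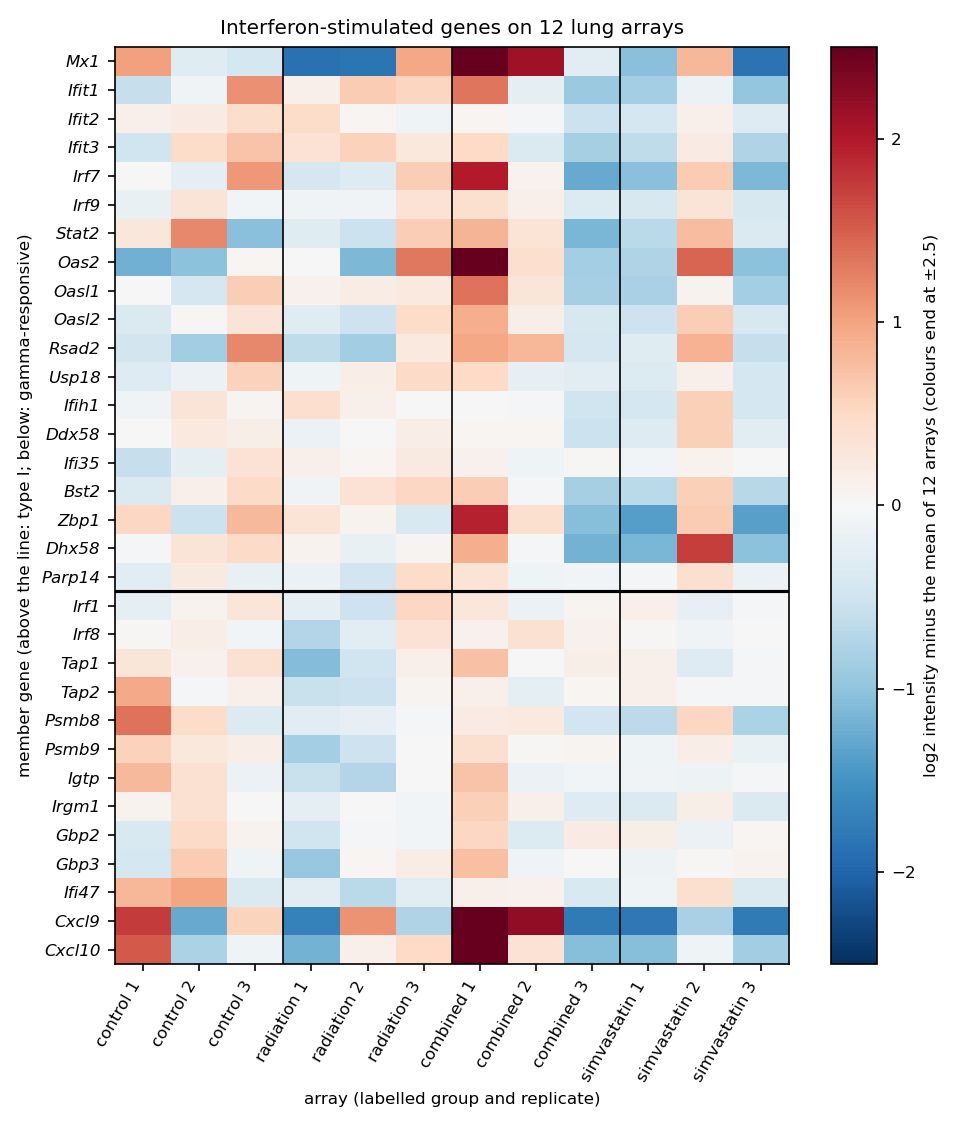
Log2 deviation of each of the 32 tested members (rows, type I above and gamma-responsive below) from its own mean over 12 arrays, for each array (columns, by labelled group and replicate); red is above, blue below, and colours end at ±2.5. Combined 1 is high over nearly the whole column, combined 3, simvastatin 1 and simvastatin 3 are low in most type I rows, and radiation 1 is low in the gamma-responsive rows.

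The members' levels varied between arrays of the same labelled group. The mean deviation of the 19 type I members from their 12-array means was -0.16, -0.02 and 0.36 on control 1 to 3, -0.11, -0.20 and 0.37 on radiation 1 to 3, 0.96, 0.19 and -0.65 on combined 1 to 3 and -0.63, 0.56 and -0.68 on simvastatin 1 to 3. Combined 1 and simvastatin 2 were thus high, the 3 near-identical arrays were low, and all 4 groups overlapped. For the 13 gamma-responsive members the deviations were 0.55, 0.14 and 0.04 on control 1 to 3, -0.70, -0.21 and 0.05 on radiation 1 to 3, 0.87, 0.19 and -0.27 on combined 1 to 3 and -0.29, -0.05 and -0.33 on simvastatin 1 to 3. Here the extremes were combined 1 and control 1 above and radiation 1 below; the 3 simvastatin arrays lay below the 3 controls, and every other pair of groups overlapped.

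**Figure D2:**
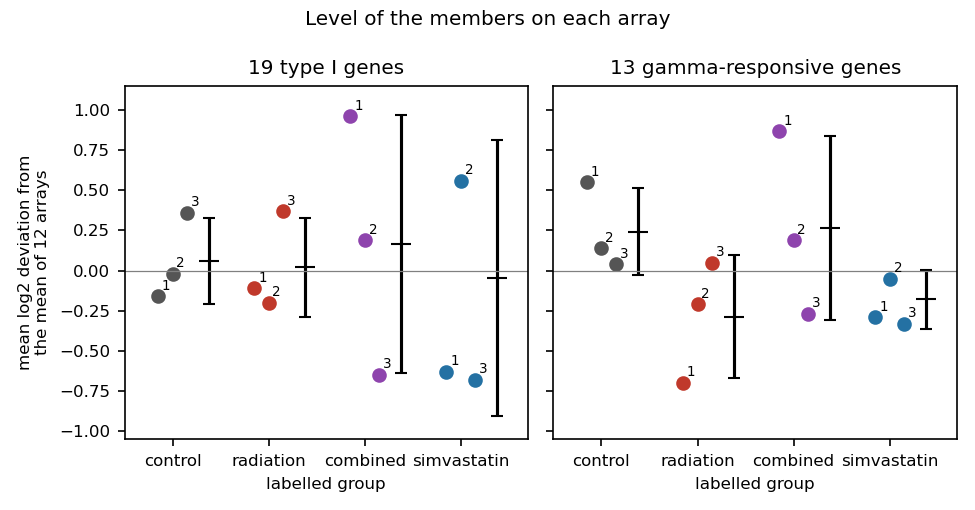
Mean log2 deviation of the 19 type I members (left) and the 13 gamma-responsive members (right) on each array, by labelled group. Points are arrays, small numbers are replicates, and the bars give mean ± SD over 3 samples (simvastatin 1 and 3 averaged, so 2 samples there). Combined spans 0.96 to -0.65 for type I members, more than the distance between any group means.

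The following array orders were picked out after the values were seen and are given as counts. Combined 1 was the highest of the 12 arrays for 15 of 32 members (736 of 11602 tested genes, 6.34%), 9 of type I and 6 gamma-responsive, and it lay above the mean for 31 of 32 (44.5% of all genes). Control 1 was highest for Tap2, Psmb8, Psmb9 and Igtp, 4 of 13 gamma-responsive members (30.8%), and for 0 of 19 type I members. That is 12.5% of the 32 members, against 18.4% of all genes. Combined 3, simvastatin 1 and simvastatin 3 all lay below the other 9 arrays for 11 of 19 type I members and 3 of 13 gamma-responsive members (6.56% of all genes), though these arrays come close to being 1 measurement under different labels. Radiation 1 and 2 both lay below the other 10 arrays for Irf1, Irf8, Tap1, Tap2, Psmb9 and Igtp, 6 of 13 gamma-responsive members, and for 0 of 19 type I members (3.68% of all genes); radiation 1 alone was lowest for 7 of 13 (4.77% of all genes). Simvastatin 2 lay above the mean for 18 of 19 type I members (40.5% of all genes) and 5 of 13 gamma-responsive members.

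Other cell types' markers moved over the same arrays. The mean deviation of 10 tested T and NK cell markers of 15 listed was 3.03 on control 1, 0.61 on combined 1, -0.94 on radiation 1 and between -0.76 and 0.33 elsewhere. That of 2 tested thymocyte markers of 8 listed was 4.72 on control 1 and 2.32 on combined 1, against -1.32 to 0.65 elsewhere. The 9 tested macrophage and monocyte markers of 12 were highest on combined 1 (0.82) and lowest on control 1 (-0.61), and the 7 tested neutrophil markers of 9 ran from -2.40 on radiation 2 to 2.95 on simvastatin 2. Of the 8 markers of plasmacytoid dendritic cells, strong makers of type I interferon, 4 were tested (Bst2, Tcf4, Cox6a2 and Spib) and spanned -0.44 to 0.51. Bst2 is itself a type I member, so this mean is not separate from theirs. The defining gene Siglech read 1.87 to 1.97 on all arrays, among the lowest values. The part of these cell types in the members' levels was not tested.

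Among the antiviral effectors, Mx1, a GTPase that blocks influenza virus and is annotated as a transcribed pseudogene in the RefSeq table of the reference strain, varied most. Mx1 read 5.41, 4.08 and 3.93 on control 1 to 3, 2.52, 2.56 and 5.35 on radiation 1 to 3, 6.97, 6.49 and 4.12 on combined 1 to 3 and 3.34, 5.21 and 2.54 on simvastatin 1 to 3. Radiation 1 and 2 and simvastatin 3 were low and combined 1 and 2 high. Radiation overlapped control and combined through radiation 3. It overlapped simvastatin also through simvastatin 3, which lay between radiation 1 and 2. Oas2, an enzyme that makes the second messenger for RNase L on sensing double-stranded RNA, read 6.63, 6.79 and 7.88 in controls, 7.83, 6.71 and 9.14 after radiation, 10.56, 8.25 and 6.97 in the combined group and 7.07, 9.27 and 6.79 with simvastatin. Its highest value was on combined 1, with simvastatin 2 and radiation 3 next, and no group stood clear of another. The SD over 12 arrays was 1.52 for Mx1 and 1.26 for Oas2, and 97.7% and 96.4% of tested genes varied less.

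Ifit1, Ifit2 and Ifit3, neighbours in the genome that encode tetratricopeptide proteins binding viral RNA, differed less. Ifit2 read 10.43, 10.52 and 10.75 in controls, 10.76, 10.36 and 10.20 after radiation, 10.35, 10.27 and 9.77 in the combined group and 9.87, 10.44 and 9.99 with simvastatin. The 3 combined arrays lay below all 3 controls, and the 3 lowest values belonged to the near-identical arrays. Ifit1 ranged from 8.54 (simvastatin 3) to 10.85 (combined 1) and Ifit3 from 9.76 (combined 3) to 11.32 (control 3). Rsad2, the radical enzyme viperin, ranged from 8.63 on control 2 and radiation 2 to 10.70 on control 3, and Bst2, which tethers budding virions, from 9.65 on combined 3 to 11.09 on combined 1. Oasl1 ran from 3.94 to 6.15 and Oasl2 from 10.38 to 11.81, both highest on combined 1.

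The transcription factors of the type I branch also differed between arrays of one label. Irf7, the amplifier of interferon alpha production, read 6.96, 6.71 and 8.03 in controls, 6.54, 6.62 and 7.57 after radiation, 8.94, 7.03 and 5.70 in the combined group and 5.91, 7.58 and 5.82 with simvastatin. Its highest array and its lowest array, combined 1 and combined 3, carry the same label. Stat2, a subunit of the response-element complex, read 7.81, 8.74 and 6.49 in controls, 7.22, 7.00 and 8.15 after radiation, 8.39, 7.88 and 6.38 in the combined group and 6.85, 8.30 and 7.17 with simvastatin; here control 3 stood with the lowest arrays. Irf9, its DNA-binding partner, stayed within 9.41 to 10.22.

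The RNA sensors spanned similar ranges. Ifih1 read 9.72 to 10.81 and Ddx58 8.87 to 10.00, both highest on simvastatin 2 and lowest on combined 3, and Dhx58, their regulator, read 4.64 to 7.55 with the same 2 arrays at its ends. Zbp1, a sensor of Z-form nucleic acid, ran from 5.73 to 9.03. Usp18, which removes Isg15 and restrains the receptor, read 9.63 to 10.64, Parp14, a mono-ADP-ribosyltransferase, 9.72 to 10.65, and Ifi35 12.45 to 13.40; Ifi35 had the smallest SD of the members, 0.24.

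Among gamma-responsive members, the antigen-processing genes are described first. Psmb9, an inducible catalytic subunit of the immunoproteasome, read 10.73, 10.42 and 10.32 in controls, 9.31, 9.65 and 10.15 after radiation, 10.56, 10.19 and 10.23 in the combined group and 10.05, 10.33 and 10.00 with simvastatin. All 3 radiation arrays lay below all control and combined arrays, with radiation 3 nearest to them, and overlapped simvastatin. Tap1, a subunit of the peptide transporter that loads MHC class I, read 9.88, 9.68 and 9.96 in controls, 8.49, 9.08 and 9.70 after radiation, 10.30, 9.56 and 9.72 in the combined group and 9.69, 9.25 and 9.54 with simvastatin. Radiation 1 and 2 were lowest, while radiation 3 lay within the control range. Tap2, the transporter's other subunit, read 10.37, 9.39 and 9.55 in controls, 8.87, 8.88 and 9.49 after radiation, 9.55, 9.17 and 9.47 in the combined group and 9.55, 9.38 and 9.39 with simvastatin. Control 1 stood above the other arrays and radiation 1 and 2 below them. Psmb8, another immunoproteasome subunit, read 11.92, 11.01 and 10.22 in controls, 10.27, 10.35 and 10.53 after radiation, 10.76, 10.81 and 10.07 in the combined group and 9.91, 11.07 and 9.77 with simvastatin; control 3 lay below all radiation arrays, so these groups overlapped. Psmb9, Tap1, Psmb8 and Tap2 are adjacent genes in the MHC.

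The immunity-related GTPases, which act in defence against intracellular pathogens, are described next. Igtp read 11.24, 10.81 and 10.28 in controls, 9.87, 9.69 and 10.44 after radiation, 11.14, 10.27 and 10.35 in the combined group and 10.33, 10.30 and 10.38 with simvastatin. Radiation 1 and 2 were lowest and control 1 and combined 1 highest, with radiation 3 above control 3. Ifi47 read 11.64, 11.80 and 10.45 in controls, 10.53, 10.13 and 10.53 after radiation, 10.94, 10.91 and 10.42 in the combined group and 10.71, 11.21 and 10.45 with simvastatin. Control 1 and 2 were highest and control 3 lay among the radiation arrays. Irgm1 ran from 9.13 to 10.07, and its control and radiation ranges met at 9.49. Of the guanylate-binding proteins, Gbp2 read 11.34, 12.19 and 11.80 in controls, 11.23, 11.69 and 11.66 after radiation, 12.23, 11.37 and 11.93 in the combined group and 11.86, 11.58 and 11.76 with simvastatin, with every pair of groups overlapping. Gbp3 ran from 9.26 (radiation 1) to 10.95 (combined 1).

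**Figure D3:**
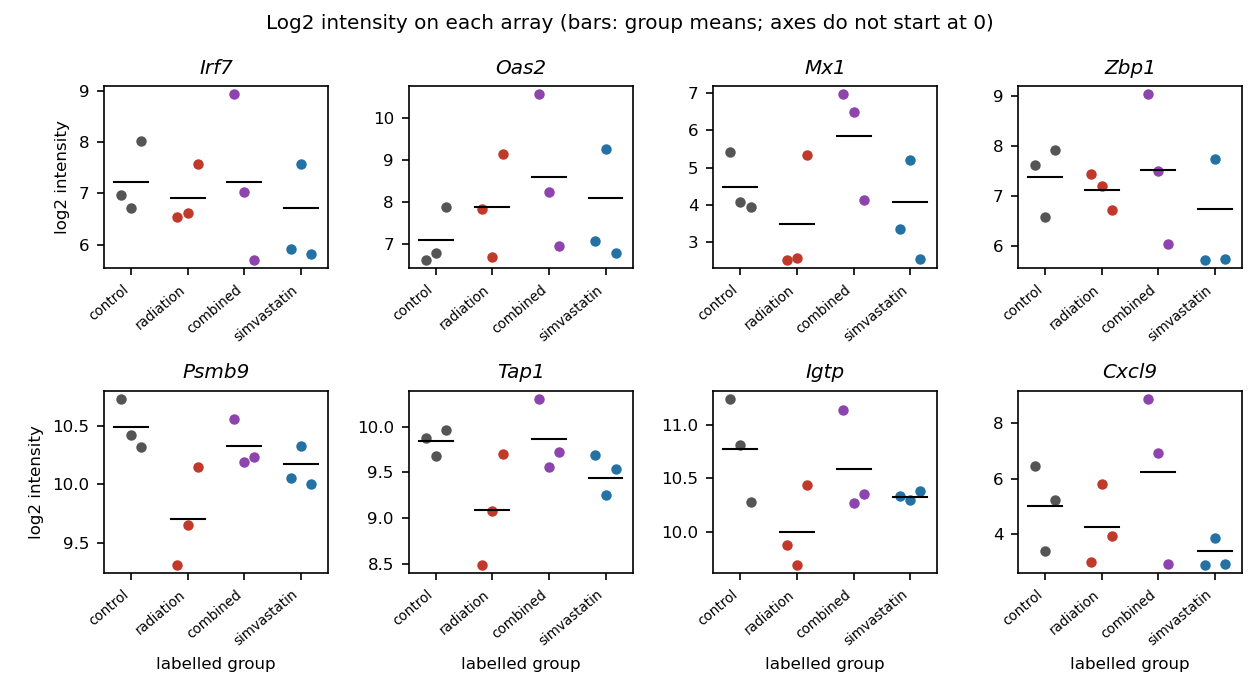
Log2 value on each array for members the results turn on, by labelled group, with the group mean as a line (simvastatin 1 and 3 averaged first). Psmb9 is the member whose 3 radiation arrays (9.31 to 10.15) lie below all control and combined arrays; in Tap1 and Igtp radiation 3 lies among the controls.

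Irf1, the factor that relays the gamma signal to MHC genes, had one of the smaller spreads. Irf1 read 10.45, 10.75 and 10.98 in controls, 10.43, 10.16 and 11.19 after radiation, 10.95, 10.52 and 10.74 in the combined group and 10.79, 10.46 and 10.64 with simvastatin. Radiation held both the lowest 2 arrays and the highest one. Irf8, a factor of the myeloid lineage, ran from 9.66 on radiation 1 to 10.77 on combined 2.

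The chemokines that attract Cxcr3-bearing T cells varied most of the gamma-responsive members. Cxcl9 read 6.44, 3.42 and 5.25 in controls, 2.99, 5.82 and 3.94 after radiation, 8.86, 6.91 and 2.92 in the combined group and 2.91, 3.88 and 2.93 with simvastatin. Combined 1 and 2 were the highest arrays and combined 3 among the lowest, and 98.7% of tested genes had a smaller SD than its 1.95. Cxcl10 read 8.56, 6.24 and 6.93 in controls, 5.86, 7.15 and 7.54 after radiation, 9.67, 7.40 and 5.97 in the combined group and 5.97, 6.93 and 6.17 with simvastatin (SD 1.16). Combined 1 and control 1 were highest, the arrays on which the T cell and thymocyte markers were highest too.

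The first comparison asked what 25 Gy had done to the lung by 6 weeks. After radiation, all 13 gamma-responsive members had a lower mean than in controls (8 of 13 once each array was centred on its median), with a median log2 difference of -0.67, while the 19 type I members split into 10 above and 9 below 0 with a median of 0.01; over all 11602 genes the median was 0.08 and 60.4% were above 0. No single member passed. By limma over all genes, 0 of 32 members and 0 of all genes (0%) reached an adjusted p under 0.05. At an unadjusted p under 0.05, 5 members were lower, all gamma-responsive (0.965% of all genes), and 0 were higher (4.21%). The lowest p was that of Psmb9, at -0.78 ± 0.23 (SE), unadjusted p = 0.00768 and adjusted p = 0.751 by limma. Ifi47 differed by -0.90 ± 0.35, Igtp by -0.78 ± 0.31, Tap1 by -0.75 ± 0.31 and Tap2 by -0.69 ± 0.28, all with adjusted p = 0.751. Psmb9 and Irgm1 were the members whose radiation arrays all lay below the controls (2.03% of all genes), and 0 lay above (4.86%). Irgm1 read 9.49 on both control 3 and radiation 2, so its groups were apart only beyond the second decimal.

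With limma's array weights, which count deviating arrays less, 3 of 32 members and 1241 of 11602 genes passed in this comparison, shares of like size. The members were Psmb9, Ifi47 and Igtp (adjusted p = 0.0309, 0.03 and 0.0463 by limma). The size of the gamma-responsive difference depended on radiation 1, on control 1, on scaling and on the probe-set rule. Without control 1 the median was -0.39 with 1 of 13 above 0. With the mean of all kept probe sets it was -0.39 with 0 of 13 above 0. Without radiation 1 the median was -0.19 with 2 of 13 above 0; without the 3 arrays that go against Cdkn1a it was -0.68 with 0 of 13 above 0. Centring each array on its median moved the all-gene median to 0.36, and the gamma-responsive median was then -0.39 with 5 of 13 above 0, still below that of all genes, while the type I median became 0.29 with 16 of 19 above 0. Without control 3, radiation 1 and radiation 2, which stood apart on the first principal component of all probe sets, it was -0.30 with 4 of 13 above 0. Over the same groups the 10 T and NK cell markers had a median difference of -1.40, all 10 below 0. Their mean deviation was 3.03 on control 1, -0.07 and -0.61 on control 2 and 3, and -0.94 to -0.10 after radiation. Control 1 thus stood apart, and the controls also enter simvastatin minus control, combined minus control and the interaction below. For B and plasma cells 7 of 8 markers were below 0 (median -0.70). All 8 skeletal muscle markers (median -2.85) and all 7 squamous markers (median -4.77) were below 0 as well; the part of these cells in the result was not tested.

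The second comparison asked what simvastatin did in irradiated lungs. All 13 gamma-responsive members had a higher mean in the combined than in the radiation group (median 0.42; 7 of 13 once arrays were centred), and the type I members split into 9 above and 10 below 0 (median -0.01), against an all-gene median of -0.09 with 37.4% above 0. Both comparisons share the radiation arrays, so the low radiation values enter each. The adjusted threshold was passed by 0 members and 0% of all genes. Mx1, Tap1 and Psmb9 were higher at an unadjusted p under 0.05 (1.59% of all genes) and 0 were lower (2.87%). Mx1 differed by 2.38 ± 1.02, which is 5.22-fold, Tap1 by 0.77 ± 0.31, Psmb9 by 0.62 ± 0.23 and Igtp by 0.59 ± 0.31, each with adjusted p = 0.835 by limma. The Mx1 fold rests in part on radiation 1 and 2, at 2.52 and 2.56, near the bottom of the scale. Mx1 lay above the median of all values (4.85) on only 5 of 12 arrays. Psmb9 was the only member with all combined above all radiation arrays (3.7% of all genes), and Ifih1 the only one with all below (13.5%).

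With array weights 4 of 32 members (Mx1, Irf8, Tap1 and Psmb9) and 1172 of 11602 genes passed, shares of like size. Here too scaling mattered: with arrays centred on their medians the all-gene median was -0.45 and the gamma-responsive median 0.06 with 7 of 13 above 0. Without combined 1 the type I median was -0.35, and without combined 3, the array whose Cdkn1a goes against its label, it was 0.20. Leaving out the 3 arrays that go against Cdkn1a gave a gamma-responsive median of 0.53 with 13 of 13 above 0, but it was 0.21 without radiation 1, 0.24 without combined 1 (12 of 13 above 0), and 0.15 without control 3, radiation 1 and radiation 2 (10 of 13 above 0). All 8 tested B and plasma cell markers were higher in the combined group (median 1.51), as were 9 of 10 T and NK cell markers (median 0.55), all 8 skeletal muscle markers (median 1.19) and all 7 squamous markers (median 2.89); their part in the result was not tested.

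The third comparison asked what simvastatin did without radiation. All 13 gamma-responsive members had a lower mean than in controls (median -0.34), and 7 of 19 type I members were above 0 (median -0.06). Over all genes the median was -0.00 with 49.6% above 0. After quantile normalization 12 of 13 gamma-responsive members were lower. Without control 2, and also without the 3 arrays that go against Cdkn1a, 2 of 13 were above 0. Without control 1 the gamma-responsive median was -0.23. The adjusted threshold was passed by 0 members and 0% of genes, and at an unadjusted p under 0.05 no member was higher (0.612% of genes) or lower (1.23%). Ifit2 differed by -0.38 ± 0.25, Igtp by -0.45 ± 0.35, Psmb8 by -0.60 ± 0.49 and Psmb9 by -0.31 ± 0.26, all with adjusted p = 0.99 by limma. No member's groups were apart (2.82% of genes higher, 6.38% lower). The type I value rested on the array labelled simvastatin 2: without it the median was -0.64. Of the other gamma targets, Cd274, an immune checkpoint ligand, differed by -0.98 ± 0.43 (adjusted p = 0.99, limma). The controls are the same arrays as in the first comparison. Over these groups 8 of 10 T and NK cell markers (median -1.20), all 8 skeletal muscle markers (median -6.71, 7 of them at an unadjusted p under 0.05) and all 7 squamous markers (median -6.81) were below 0; their part in the result was not tested.

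The fourth comparison set both treatments together against controls. The medians were -0.01 for type I and 0.01 for gamma-responsive members, and 0.00 over all genes with 50.5% above 0. The adjusted threshold was passed by 0 members and 0% of genes, and the unadjusted one by 0 higher (1.3% of genes) and 0 lower (1.52%). Ifit2 differed by -0.43 ± 0.23, Ifi47 by -0.54 ± 0.35, Oas2 by 1.49 ± 0.97 and Mx1 by 1.38 ± 1.02, each with adjusted p = 0.995 by limma. Ifit2 was the only member whose combined arrays all lay below the controls (3.87% of genes), and 0 lay above (2.67%). Without combined 1 the medians were -0.37 and -0.25, and without control 3 they were 0.24 and 0.07. All 8 B and plasma cell markers were above 0 (median 0.66) and 8 of 10 T and NK cell markers (median -0.88), all 8 skeletal muscle markers (median -1.29) and 5 of 7 squamous markers (median -1.80) below it; their part was not tested.

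**Figure D4:**
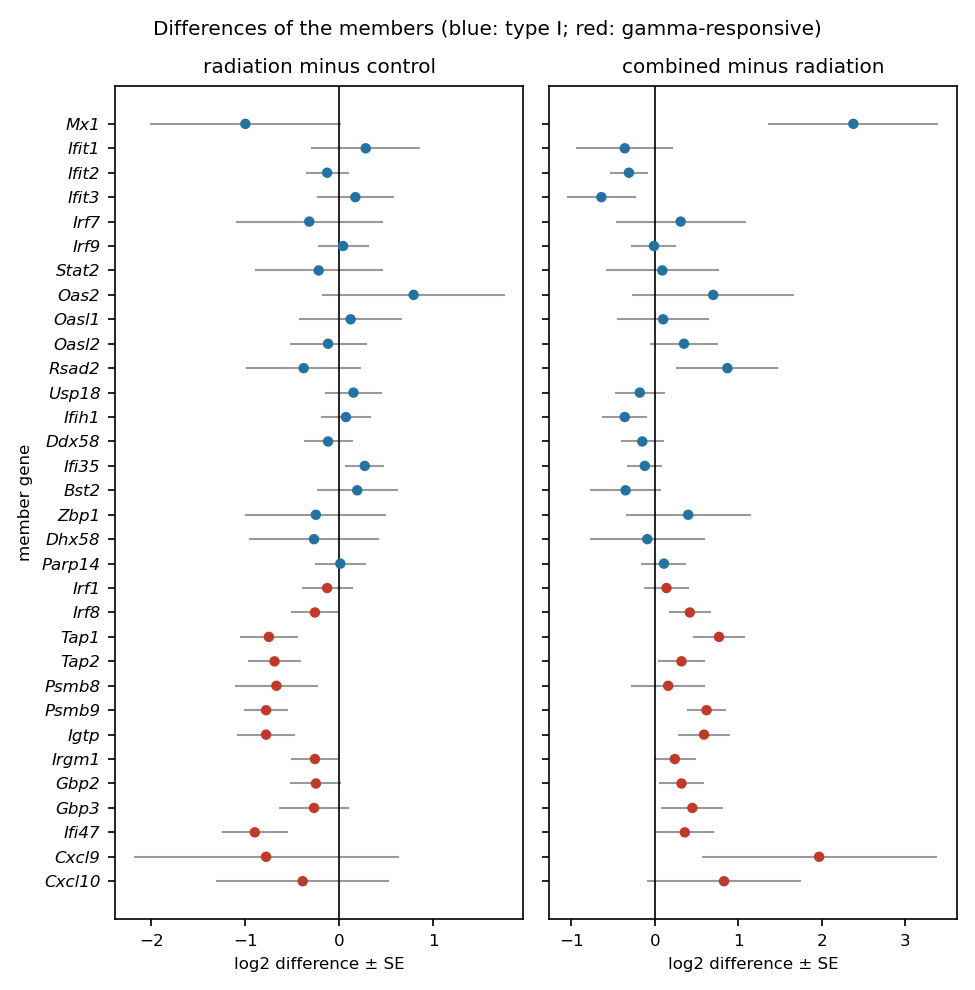
Log2 difference of each tested member in radiation minus control (left) and combined minus radiation (right), with bars of ± 1 SE from the limma fit. The 13 gamma-responsive members lie below 0 on the left and above 0 on the right (8 and 7 of 13 once arrays are centred), while the type I members lie on both sides; none reached an adjusted p under 0.05.

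The interaction asked whether the simvastatin difference itself depended on radiation. The value, (combined minus radiation) minus (simvastatin minus control), was above 0 for all 13 gamma-responsive members (median 0.76, and 12 of 13 once arrays were centred). In the main fit these 13 were below 0 in simvastatin minus control and above 0 in combined minus radiation, so the differences had opposite signs. Without control 2, 2 of 13 were above 0 in simvastatin minus control. With arrays centred, 7 of 13 were above 0 in combined minus radiation. Of the type I members 10 of 19 had a value above 0 (median 0.05), with -0.09 over all genes and 42.7% above 0. The adjusted threshold was passed by 0 members and 0% of genes. Psmb9 and Tap1 were higher at an unadjusted p under 0.05 (1.88% of genes) and 0 lower (1.37%). Psmb9 gave 0.94 ± 0.35, Tap1 1.18 ± 0.46, Igtp 1.04 ± 0.47 and Mx1 2.78 ± 1.53, all with adjusted p = 0.882 by limma. The Mx1 value again includes the low readings of radiation 1 and 2. Centring arrays gave medians of 0.40 for gamma-responsive and -0.31 for type I members, with 5 of 19 type I members above 0. Since 4 group means enter this value, and 3 arrays go against Cdkn1a, it was also computed without those arrays, at 1.05 for gamma-responsive and 0.70 for type I members. In the same interaction 8 of 10 T and NK cell markers (median 1.75), all 8 B and plasma cell markers (median 1.40), all 8 skeletal muscle markers (median 8.26, 7 of them at an unadjusted p under 0.05) and all 7 squamous markers (median 8.64) were above 0; their part in the result was not tested.

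Upstream of the members, most interferon genes with a probe set of their own read near the bottom of the scale. Of 11 ligand genes 8 had one, and Ifna2 alone passed the filter (7.06 to 7.39); Ifnb1 read 2.07 to 2.21 and Ifng 2.31 to 2.45 on all arrays. Ifnk, Ifnl2 and Ifnl3 had none and were not measured here. All 9 listed receptor chains and kinases were tested, and no gene passed in any comparison. Ifngr1, the ligand-binding gamma receptor chain, differed by 0.28 ± 0.18 after radiation (adjusted p = 0.751) and by -0.35 ± 0.18 in combined minus radiation (adjusted p = 0.835, limma). Socs1, a feedback inhibitor of the receptors' kinases, read 4.13 on control 1 and 1.52 to 1.56 on the other 11. Of 9 listed inhibitors 7 were tested with 0 passing; Socs3, which mainly restrains Stat3, differed by 1.03 ± 0.55 after radiation (adjusted p = 0.751, limma).

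Among 6 of 8 signal factors tested, Cebpb, a factor of acute-phase and gamma responses, gave the lowest p in 3 comparisons: 0.74 ± 0.37 after radiation, 0.88 ± 0.41 with simvastatin and 0.98 ± 0.37 with both, with 0.751, 0.99 and 0.995 as adjusted p by limma. All 3 differences share the controls, and control 1 (10.89) was its lowest array. Irf4, a lymphocyte factor, differed by 1.29 ± 0.61 in combined minus radiation (adjusted p = 0.835). Of 15 genes of nucleic acid sensing 10 were tested and 0 passed; the adaptor Traf6 differed by -0.47 ± 0.20 in combined minus radiation (adjusted p = 0.835, limma).

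Other targets of the same branches, listed separately, also had 0 genes past the threshold. Of 26 other gamma targets 17 were tested and 0 passed: after radiation the median was -0.21 with 5 of 17 above 0, and in combined minus radiation 0.09 with 13 of 17 above 0. Gbp6, a guanylate-binding protein, differed by -0.95 ± 0.37 and Iigp1, an immunity-related GTPase, by -0.96 ± 0.41 after radiation (adjusted p = 0.751, limma). Nlrc5, the transactivator of MHC class I genes and of Tap1 and Psmb9, read 9.62, 9.22 and 8.37 in controls, 7.27, 7.63 and 9.30 after radiation, 9.92, 9.30 and 9.09 in the combined group and 9.15, 9.21 and 9.13 with simvastatin. Radiation 1 and 2 were its 2 lowest arrays, as for Tap1; it differed by 1.38 ± 0.51 in combined minus radiation (adjusted p = 0.835, limma). Of 28 other type I targets 25 were tested and 0 passed, with medians of -0.01 after radiation and 0.10 in combined minus radiation. Ddx60, a helicase that assists RNA sensing, differed by -1.02 ± 0.39 and Pml, the scaffold of nuclear bodies, by -0.35 ± 0.21 after radiation (adjusted p = 0.751).

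A further 11 probe sets of members passed the same filter and were not chosen. Their sign matched that of the chosen probe set in 7 of 11 for radiation minus control, 10 of 11 for combined minus radiation, 11 of 11 for simvastatin minus control and 7 of 11 for combined minus control. The exception in combined minus radiation was Psmb8, and those in radiation minus control were Ddx58, Parp14 and both further probe sets of Rsad2.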

How the data were processed

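Total lung RNA was hybridised to 12 single-colour Affymetrix arrays, and the authors deposited 1 table of log2 values for 45101 probe sets. MAS5 and GCRMA are named per the submitters' processing notes, without saying which step each made; neither build nor normalization is otherwise given in the sources used here. The number of arrays limits precision. The annotation gave 34945 probe sets 1 symbol, 932 several and 9211 none; 34741 of the first matched RefSeq by gene ID. A gene was its probe set of highest mean among those above the median of all values (4.85) on at least 3 arrays. limma 3.58.1 (R 4.3.3) was fitted over 11602 genes in 4 groups and 11 samples, with an intensity trend and Benjamini-Hochberg adjustment in each of 5 comparisons. The fit was also run on simulated data with independent samples and the same noise for every gene. These arrays differ from that, so the simulation bears on the working of the fit alone. Differences are log2 ± SE. Array values are given for the 4 members of lowest p in each comparison, the 4 of largest SD and the usual readouts Mx1, Irf7, Stat2, Irf1, Tap1, Gbp2 and Cxcl9; other pathway genes are drawn from the 1 or 2 of lowest p per list and comparison, and Ifnb1, Ifng and Socs1 were added after their values were seen. Members and lists were chosen with earlier results of these data known. Alternatives were other scalings, filters, probe-set rules, variance models, array weights, a replicate block and leaving out arrays. Same-numbered arrays of different groups correlated at -0.26 to 0.41 over genes. Every same-numbered pair was above 0.1 for control with combined (0.29, 0.32 and 0.41), which were therefore also fitted as pairs, and for no other groups compared.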

Additional observations from a re-analysis of the deposited data

How the results depend on the processing

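The choice that moved the counts of genes called most was limma's array weights, which give less weight to arrays that deviate from their group: 1241 genes passed in radiation minus control, 1172 in combined minus radiation and 43 in combined minus control, against 0 in each without weights. With weights 3 of 32 members passed in radiation minus control (Psmb9 at -0.91, Igtp at -0.92, Ifi47 at -1.29). In combined minus radiation 4 of 32 passed (Mx1 at 3.56, Tap1 at 1.08, Psmb9 at 0.84, and Irf8). Both shares were near those of all 11602 genes. The cause was not tested.

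Leaving out each array in turn kept 0 members past the threshold in all 5 comparisons. The count of genes ran from 0 to 1 in radiation minus control, in combined minus control and in the interaction, with the 1 gene found without control 3. The gamma-responsive median ran from -0.74 to -0.19 in radiation minus control (without radiation 3 and radiation 1), the type I median from -0.64 to -0.04 in simvastatin minus control and from -0.26 to 0.69 in the interaction (highest without simvastatin 2, lowest without combined 1). Without the 3 arrays that go against Cdkn1a, chosen after seeing the data, 9 genes passed in radiation minus control and 2 in combined minus control, and the interaction medians were 0.98 for all members and 0.70 for type I members. The cause was not tested.

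With the replicate number as a block over 12 arrays, 0 members passed, and the gamma-responsive medians were -0.67, 0.42 and 0.87 for radiation minus control, combined minus radiation and the interaction. With the 6 control and combined arrays alone and the replicate block, added after seeing the data, 0 genes and 0 members passed in combined minus control (lowest adjusted p = 0.996 by limma, 2 residual degrees of freedom; 2.14% of genes and 0 members at an unadjusted p under 0.05). The block changed no call. Of the summary results, the remaining 565 values were counted as unmoved. Counts among them stayed at 0, and medians moved by less than the spread between arrays of a group. That spread is wide, so the rule says little about stability. Centring arrays took the gamma-responsive median in combined minus radiation from 0.42 to 0.06, which still counted as unmoved. Type I medians near 0 changed sign over the arrays left out. They ran from -0.12 to 0.08 in radiation minus control and from -0.35 to 0.20 in combined minus radiation. In combined minus control they ran from -0.37 to 0.24. With 3 arrays a group, the number of arrays limits what could be resolved. Values of Mx1, Mx2 and Cxcl9 near 2 to 3 lie at the low end of the arrays' scale.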
